A study of Mus musculus with 9 samples.

Results

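The 10 genes described here encode proteins of the BCL2 family, which set whether a cell's mitochondria release cytochrome c and start apoptosis. They were chosen by symbol from the 35673 genes of the deposited count table: Bcl2, Bcl2l1, Mcl1, Bcl2a1b and Bcl2a1d, which encode proteins that hold apoptosis back, and Bcl2l11, Bbc3, Pmaip1, Bid and Bax, which encode proteins that promote it. All 10 had rows in the table, and all 10 were among the 21341 genes that passed a filter on low counts. The family works by binding: BH3-only proteins such as BIM, PUMA and NOXA occupy the groove of the guards BCL-2, BCL-XL, MCL-1 and A1, and what the guards no longer hold lets BAX and BAK open the outer mitochondrial membrane. Basophils are short-lived granulocytes whose survival depends on cytokines such as IL-3, and A1 and MCL-1 are known for their part in the lifespan of granulocytes and mast cells.

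The study measured gene expression by bulk RNA sequencing in basophils cultured from C57BL/6J wild-type mouse bone marrow, and asked how difamilast, an inhibitor of the cAMP-degrading enzyme phosphodiesterase 4, acts on cells activated by cytokines. Bone marrow was cultured for 7 days with IL-3 at 0.3 ng/mL, cells bearing CD49b were enriched magnetically, and 10000 cells per library were treated for 4 hours. The study compared 3 conditions with 3 libraries each: resting cells (PBS with the vehicle DMSO), stimulated cells (IL-3 and IL-33, both at 10 ng/mL, with DMSO), and difamilast cells (the same 2 cytokines with difamilast at 3 µM instead of vehicle). IL-33 is an alarmin that signals through the ST2 receptor to NF-kB. All groups had therefore seen IL-3 during the culture, and difamilast was analysed here in stimulated cells alone. The labels do not say that libraries came from separate cultures or animals, so p-values measure the spread between these libraries, which may be technical.

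Libraries held 6261446 to 38098584 counts, and the 3 resting libraries, at up to 14795353, were shallower than every stimulated or difamilast library except stimulated replicate 1. There were 2 libraries that stood apart from their groups. The chi-square per degree of freedom against the other libraries of the group was 19.3 and 33.8 for resting replicate 1, beside 5.06 between the other resting libraries, and 29.7 and 43.3 for difamilast replicate 3, beside 6.74 between the other difamilast libraries. Calls that end or appear without either library are given beside the gene. Mitochondrially encoded transcripts took 1.82% to 2.71% of counts in resting, 1.51% to 1.67% in stimulated and 1.19% to 1.42% in difamilast libraries, with no overlap, and the part of this difference in the results was not tested. Basophil markers were present, with all 12 listed genes measured and summed levels of 6908 to 7831 CPM (each count relative to its scaled library total) in resting, 11553 to 12248 in stimulated and 12924 to 13927 in difamilast libraries; 7 of the 12 were higher and 2 lower with stimulation. The 12 monocyte and macrophage markers were also present, at 6112 to 7634 CPM in resting, 4738 to 5041 in stimulated and 4535 to 4931 in difamilast libraries, with 8 of 12 lower and 1 higher with stimulation. Dendritic cell markers summed to 1970 to 2455 CPM in all libraries, with 3 of 9 lower with stimulation. Mast cell markers summed to 494 to 831 CPM, with 3 of 8 tested lower and 1 higher with stimulation and 2 lower with difamilast, where their median log2 fold change was -0.57. Erythroid and megakaryocyte markers summed to 491 to 688 CPM in resting, 302 to 428 in stimulated and 393 to 482 in difamilast libraries. The remaining lists were lower, with sums of 192 to 297 CPM for neutrophil, 40.6 to 51.2 for B cell and 19.8 to 26.5 for eosinophil markers. Of the 10 NK and T cell markers, whose CD49b-bearing members the enrichment could retain, 3 averaged under 1 CPM and the sum was at most 22.7 CPM in a library. Bulk counts cannot tell fewer cells of a type from less RNA per cell, and the part of these other cells in the results below was not tested.

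Scaling matters for the stimulation results. The scaling used throughout (TMM, which sets the bulk of genes level between libraries) gave factors of 1.23 to 1.32 for resting and 0.851 to 0.916 for all other libraries, while the 10 most abundant genes took 10.4% to 15.1% of resting and 20.4% to 25.9% of other libraries. With scaling to total counts instead, the median log2 fold change of all genes with stimulation went from 0.06 to -0.47, and the share of higher genes among those called went from 48.3% to 13.2%. Changes with stimulation are therefore changes relative to the median gene, and a member whose call this scaling ends is named as such. Within the difamilast comparison the median moved from 0.00 to 0.02.

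Counts of the A1 genes need a look at sequence first. Mouse A1 is encoded by Bcl2a1a, Bcl2a1b and Bcl2a1d. The related gene Bcl2a1c has a shorter annotated coding sequence, and whether it yields A1 protein was not tested. All 4 genes lie on chromosome 9. The opening 120 bases of the 4 coding sequences (GENCODE vM21, GRCm38) are shown because they differ at 8 positions in all, given in capitals.

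Bcl2a1a: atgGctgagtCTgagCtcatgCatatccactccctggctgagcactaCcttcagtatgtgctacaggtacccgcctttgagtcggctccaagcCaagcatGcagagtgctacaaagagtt

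Bcl2a1b: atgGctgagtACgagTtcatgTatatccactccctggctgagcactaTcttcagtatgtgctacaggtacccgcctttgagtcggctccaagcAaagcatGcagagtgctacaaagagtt

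Bcl2a1d: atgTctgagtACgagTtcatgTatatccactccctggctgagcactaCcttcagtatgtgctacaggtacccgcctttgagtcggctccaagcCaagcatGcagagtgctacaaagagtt

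Bcl2a1c: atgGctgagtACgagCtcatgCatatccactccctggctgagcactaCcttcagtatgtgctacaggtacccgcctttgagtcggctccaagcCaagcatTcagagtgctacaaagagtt

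Over the whole coding sequence of 519 bases, Bcl2a1b differed from Bcl2a1d at 6 positions (98.84% identity) and from Bcl2a1a at 11 (97.88%). Of all 50-base windows of the annotated transcripts, 57.6% of those of Bcl2a1b, 79.5% of those of Bcl2a1d and 69.0% of those of Bcl2a1a occurred unchanged in at least 1 other A1 gene. With Gm29094, an annotated gene whose exons overlap Bcl2a1b by 401 bases on the same strand, the share for Bcl2a1b was 79.2%. How reads that fit several genes were counted is not given in the sources used here, so the split between A1 genes is uncertain, and their sum was also tested. The split was nearly even and alike in every library: Bcl2a1a took 26.8% to 31.3% of A1 counts, Bcl2a1b 34.4% to 38.4%, Bcl2a1d 30.7% to 33.5% and Bcl2a1c 2.08% to 3.33%.

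Stimulation raised transcripts of 4 of the 5 guards, and of the 5 promoters of death it raised 2 and lowered 2. In the quasi-likelihood test of edgeR, with p-values adjusted over all tested genes after Benjamini and Hochberg, 6 of 10 members rose and 2 fell, where 15.3% of all tested genes rose and 16.4% fell (31.7% in either direction). With scaling to total counts 4 members rose and 4 fell, where 6.21% of all tested genes rose and 41% fell. The median log2 fold change was 0.65 over the members and 0.06 over all tested genes. The ranges of the stimulated and resting libraries did not overlap for 6 members that lay higher and 2 that lay lower, where 23.2% and 20.6% of all tested genes (43.7% together) had such ranges.

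**Figure D1:**
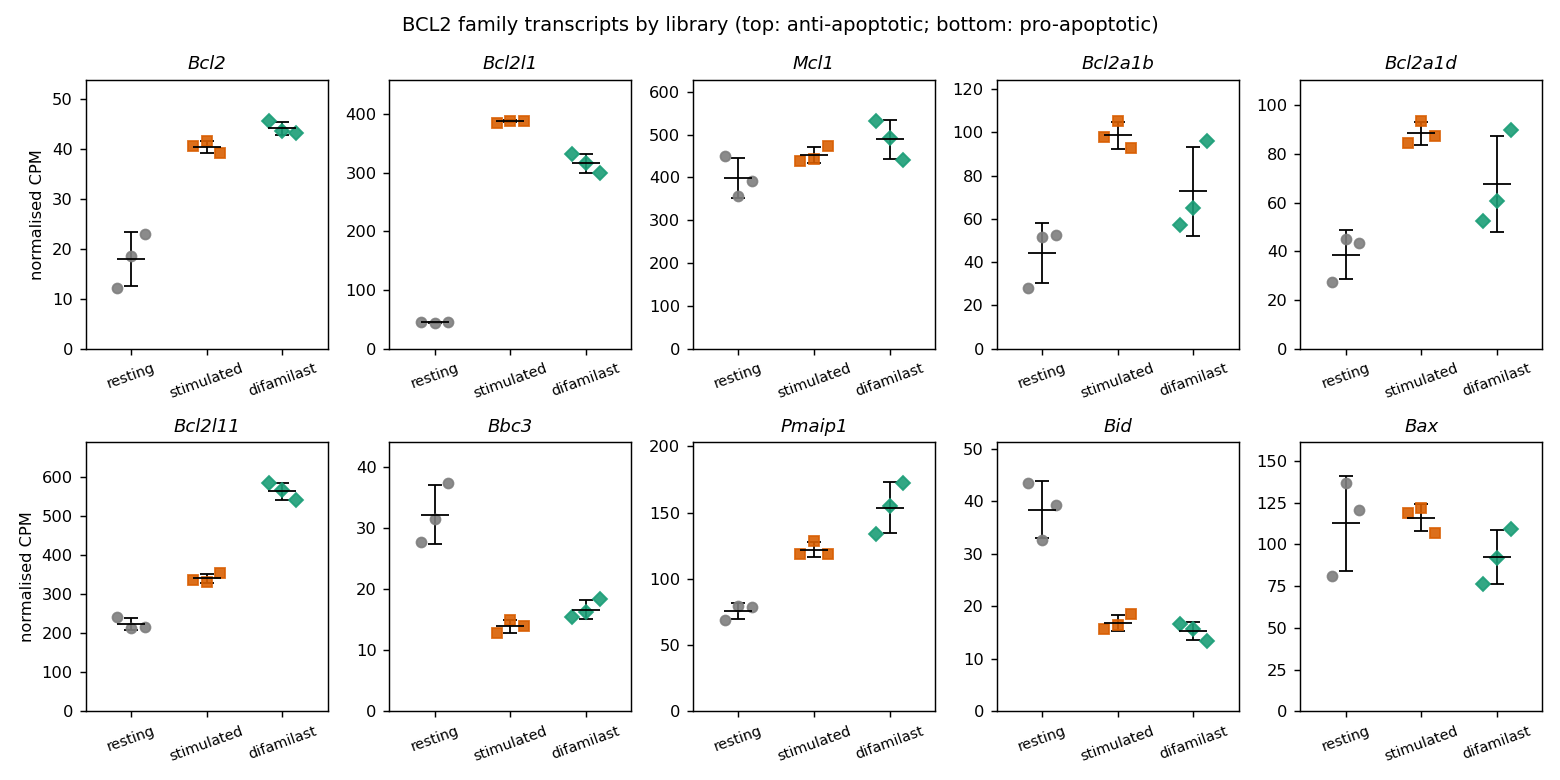
Normalised CPM of each member (y axis, from 0) in each library, by condition (x axis); points are libraries, the horizontal bar is the mean and the whiskers are the SD over 3 libraries. Bcl2l1 sits near 45 CPM in resting and at 385 to 388 in stimulated libraries, Bcl2l11 is highest in difamilast libraries, and the difamilast points of both A1 genes spread widely.

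The change in Bcl2l1 exceeded that of every other member. This gene (chromosome 2, 152780668 to 152831728, minus strand, GRCm38) encodes BCL-XL, a guard induced by cytokine receptors through STAT5 in many blood cells. It lay at 46.0, 43.5 and 45.0 CPM in resting replicates 1 to 3, at 385, 388 and 388 in stimulated replicates, and at 332, 316 and 299 in difamilast replicates. All stimulated libraries thus lay far above all resting ones, and all difamilast libraries lay between. The log2 fold change with stimulation was 3.11 ± 0.10 (SE), an 8.64-fold rise (adjusted p = 1.51e-11), and it ranked 10 among the p-values of all tested genes. It rose under all 16 alternatives, by 2.58 to 3.14 on the log2 scale.

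Bcl2 (chromosome 1, 106538178 to 106714274, minus strand), the guard for which the family is named, lay at 12.2, 18.6 and 22.9 CPM in resting, 40.5, 41.5 and 39.2 in stimulated and 45.6, 43.5 and 43.2 in difamilast libraries. Resting replicate 1 was the lowest library, and the resting libraries did not overlap the others. Exons of Bcl2 overlap those of the antisense gene D630008O14Rik by 558 bases, and reads of the pair cannot be told apart without strand; D630008O14Rik was counted at 0 to 0.285 CPM. Bcl2 rose 2.29-fold with stimulation (log2 fold change 1.19 ± 0.17 SE, adjusted p = 7.58e-05).

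The A1 genes rose by about as much as Bcl2. Bcl2a1b (chromosome 9, 89199209 to 89207827) lay at 28.2, 51.7 and 52.4 CPM in resting, 97.6, 105 and 92.9 in stimulated and 56.9, 65.0 and 96.0 in difamilast libraries. Bcl2a1d (chromosome 9, 88723285 to 88731914, minus strand) lay at 27.3, 45.2 and 43.6 CPM in resting, 84.4, 93.7 and 87.3 in stimulated and 52.4, 60.7 and 90.1 in difamilast libraries. Both were lowest in resting replicate 1, and difamilast replicate 3 stood within the stimulated range while the other difamilast libraries lay below it. Stimulation raised Bcl2a1b 2.24-fold (adjusted p = 0.000701) and Bcl2a1d 2.29-fold (adjusted p = 0.000286), in edgeR's quasi-likelihood test. The sum of the 4 A1 genes went from 122 ± 34.96 CPM (SD, n = 3) to 277 ± 17.4, a 2.28-fold rise that does not depend on the split between them (edgeR adjusted p = 0.000441). Reads given to Gm29094, or dropped because they fit several genes, are outside this sum. Gm29094 averaged 39.3 CPM in resting and 90.6 in stimulated libraries, a 2.31-fold rise (edgeR adjusted p = 0.000449). The paralogs Bcl2a1a and Bcl2a1c, which are not among the 10, rose 2.31-fold and 2.32-fold.

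Mcl1 (chromosome 3, 95658788 to 95663176) encodes MCL-1, a guard whose protein turns over quickly. It lay at 449, 356 and 392 CPM in resting, 439, 444 and 474 in stimulated and 533, 493 and 442 in difamilast libraries. The resting and stimulated ranges overlapped, and the log2 fold change of 0.18 ± 0.11 (SE) did not pass (adjusted p = 0.237; 95% interval -0.05 to 0.42). The direction depended on scaling: with total counts the value was -0.35 (adjusted p = 0.038), and without resting replicate 1 it was 0.24 (adjusted p = 0.0446).

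Of the BH3-only genes, Bcl2l11 and Pmaip1 rose with stimulation relative to the median gene, while Bbc3 and Bid fell. Bcl2l11 (chromosome 2, 128126038 to 128162547) encodes BIM, the BH3-only protein that removes cytokine-deprived blood cells. It lay at 241, 212 and 216 CPM in resting, 337, 331 and 354 in stimulated and 584, 566 and 542 in difamilast libraries, with no overlap between any groups. The rise with stimulation was 1.53-fold (log2 fold change 0.61 ± 0.09 SE, adjusted p = 0.000151). Pmaip1, which encodes NOXA, a BH3-only protein that binds MCL-1 and A1, lay at 68.5, 79.8 and 78.4 CPM in resting, 119, 129 and 118 in stimulated and 134, 155 and 172 in difamilast libraries. Its ranges did not overlap either, and it rose 1.61-fold with stimulation (adjusted p = 0.000256). Both calls ended with scaling to total counts, where the log2 fold changes were 0.08 for Bcl2l11 (adjusted p = 0.604) and 0.17 for Pmaip1 (adjusted p = 0.263).

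Bbc3 (chromosome 7, 16308393 to 16318205) encodes PUMA, a p53 and FOXO target that binds all guards. It lay at 27.7, 31.5 and 37.2 CPM in resting, 12.8, 14.96 and 13.9 in stimulated and 15.4, 16.2 and 18.4 in difamilast libraries. It fell by 1.20 on the log2 scale with stimulation, 2.29-fold (adjusted p = 1.61e-05). Bid (chromosome 6, 120891930 to 120916853, minus strand), whose protein links death receptors to mitochondria once caspase-8 has cut it, lay at 43.4, 32.6 and 39.3 CPM in resting, 15.6, 16.4 and 18.5 in stimulated and 16.6, 15.8 and 13.5 in difamilast libraries. It was 2.27-fold lower with stimulation (edgeR adjusted p = 1.74e-05). All resting libraries lay above all others for both genes, and both falls held under all 16 alternatives. Exons of Bid overlap those of Bcl2l13 on the opposite strand by 628 bases, and use of strand in counting is not given, so Bid counts may hold Bcl2l13 reads; Bcl2l13 itself had a log2 fold change of 0.01 (adjusted p = 0.973).

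Bax (chromosome 7, 45461697 to 45466898, minus strand), the effector that opens the mitochondrial membrane, lay at 80.8, 137 and 120 CPM in resting, 119, 122 and 107 in stimulated and 76.4, 92.0 and 109 in difamilast libraries. Resting replicate 1 lay below all stimulated libraries and the other resting libraries lay among or above them. The log2 fold change with stimulation was 0.04 ± 0.17 (SE; adjusted p = 0.881; 95% interval -0.32 to 0.40). Gm45808 shares 192 exonic bases with Bax on the same strand. The sign of the Bax value was unstable: it was -0.47 with scaling to total counts (adjusted p = 0.0189) and -0.18 without resting replicate 1 (adjusted p = 0.313).

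**Figure D2:**
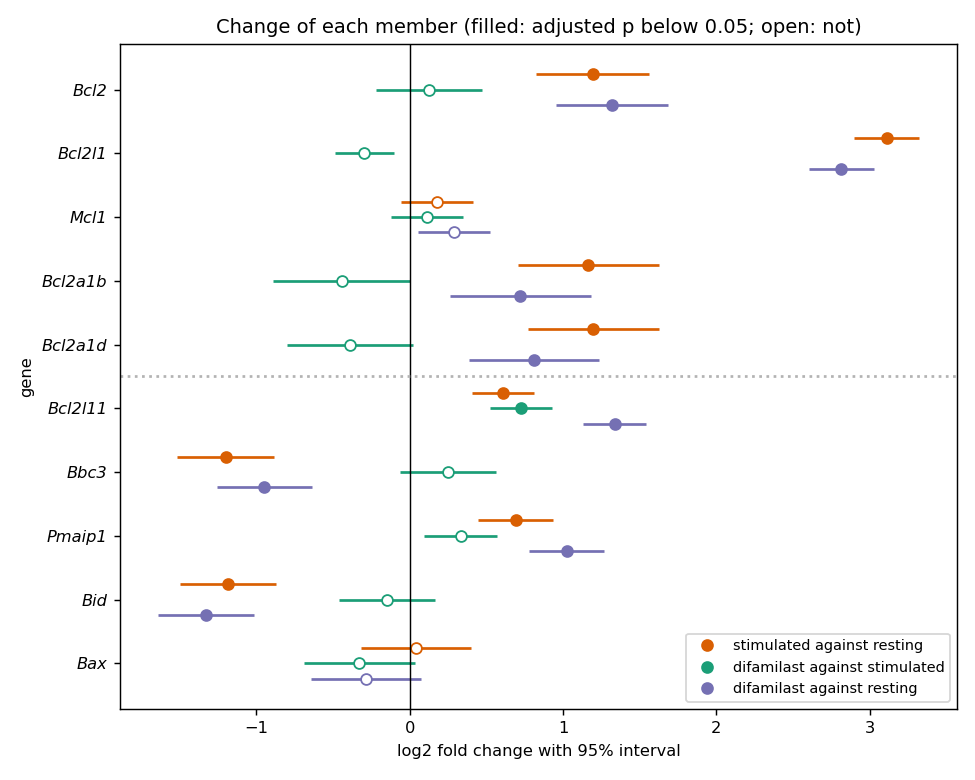
Log2 fold change of each member (x axis) with its 95% interval from edgeR, by gene (y axis) and comparison (colour); filled points passed an adjusted p of 0.05. Bcl2l1 changed by 3.11 with stimulation, and of the 10 points for difamilast against stimulated cells the one for Bcl2l11 is filled; the stimulation rises of Bcl2l11 and Pmaip1 did not pass with scaling to total counts.

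Difamilast was compared with vehicle in stimulated cells. BIM's gene was the 1 member called by edgeR: 1 of 10 members was called higher and 0 lower. Of all tested genes, 2.21% were called higher and 1.24% lower (3.44% in either direction). Median log2 fold changes were -0.02 over the members and 0.00 over all tested genes. At an unadjusted p under 0.05, 2 members lay higher and 1 lower in edgeR, where 6.72% and 7.95% of all tested genes did. DESeq2 called 2 members higher and 1 lower, and 4.32% and 2.82% of the 15614 genes to which it gave an adjusted p. Bcl2l11 went from 341 ± 12.04 CPM (SD, n = 3) in stimulated to 564 ± 21.2 in difamilast libraries, a 1.66-fold rise (log2 fold change 0.73 ± 0.09 SE, edgeR adjusted p = 0.000267). It was higher in all 3 difamilast libraries than in any stimulated library and ranked 126 among the p-values of all tested genes. It passed under all 16 alternatives, with log2 fold changes of 0.68 to 0.76 and adjusted p-values of at most 0.00506. The scalings tried hardly differ in this comparison, as the medians above show.

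The 9 other members did not pass, and several had differences of some size. Bcl2l1, with all difamilast below all stimulated libraries, had a value of -0.30 ± 0.09 on the log2 scale (SE; edgeR adjusted p = 0.104; 95% interval -0.49 to -0.10). It passed with DESeq2 (adjusted p = 0.0389), in an edgeR fit of these 2 groups alone (adjusted p = 0.0194) and without resting replicate 1 (adjusted p = 0.0105). Pmaip1, with all difamilast above all stimulated libraries, had 0.33 ± 0.11 (SE; adjusted p = 0.148; 95% interval 0.09 to 0.57) and passed under the same 3 settings (adjusted p = 0.0395, 0.0417 and 0.0275). In every setting the value of Bcl2l1 was below 0, between -0.32 and -0.26, and that of Pmaip1 above 0, between 0.24 and 0.43. Ranges also did not overlap for Bcl2 and Bbc3, which lay higher by 0.13 (adjusted p = 0.799) and 0.25 (adjusted p = 0.47) on the log2 scale, so 4 members lay wholly higher and 1 wholly lower, where 12.2% and 12.6% of all tested genes (24.8% together) did.

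The A1 genes lay lower with difamilast without passing. The summed A1 counts went from 277 ± 17.4 CPM (SD, n = 3) to 204 ± 61.2, a difference of -0.44 ± 0.20 on the log2 scale (SE; edgeR adjusted p = 0.333). Difamilast replicate 3, at 273 CPM, lay within the stimulated range of 264 to 297, and replicates 1 and 2 lay at 157 and 182. Without replicate 3 the value was -0.71 and passed (adjusted p = 0.0472), and it passed without the filter on low counts, at -0.42 (adjusted p = 0.0266). Singly, Bcl2a1b had -0.44 (adjusted p = 0.346; 0.0499 without that filter), Bcl2a1d -0.39 (adjusted p = 0.377) and Bcl2a1a -0.49 (adjusted p = 0.31; 0.0392 without difamilast replicate 3 and 0.0223 without the filter). Gm29094, whose reads lie outside the sum, had -0.53 (edgeR adjusted p = 0.231). The transcripts of Bcl2a1b and Bcl2a1d are short, at 817 and 863 bases. Among genes averaging at least 10 CPM, those of like length, 750 to 1000 bases, had a median of -0.39 on the log2 scale. The median over all tested genes was 0.00. The part of transcript length in the A1 values was not tested beyond the removal of that trend, which gave -0.30 for Bcl2a1b (adjusted p = 0.331) and -0.25 for Bcl2a1d (adjusted p = 0.393). Bax, somewhat longer at 1100 bases, had -0.33 ± 0.17 (SE; edgeR adjusted p = 0.396). It falls in the next longer class of genes averaging at least 10 CPM, whose median was -0.10. With the length trend removed, Bax had -0.22 (adjusted p = 0.418).

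Mcl1 (0.11, adjusted p = 0.719; 95% interval -0.12 to 0.35) and Bid (-0.14, adjusted p = 0.729; 95% interval -0.46 to 0.17) had intervals that include 0. Changes of the size of that in Bcl2l11 lie outside both intervals on the higher side.

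Difamilast cells were also set beside resting cells. In that comparison 6 members were called higher and 2 lower, where 16.4% of all tested genes were called higher and 16.4% lower (32.8% in all). For 6 members the difamilast libraries lay wholly above the resting ones and for 2 wholly below, where 23% and 19.8% of all tested genes (42.9% together) did. The comparison shares its libraries with both others, so its values are given side by side with them and not as further support. Bcl2l1 was 7.04-fold above resting cells with difamilast and 8.64-fold without it, Bcl2 2.50-fold and 2.29-fold, and the summed A1 genes 1.68-fold and 2.28-fold. On the side of death promoters, Bcl2l11 stood 2.53-fold above resting cells with difamilast and 1.53-fold without it, and Pmaip1 2.03-fold and 1.61-fold, while Bid was 2.51-fold and 2.27-fold lower and Bbc3 1.93-fold and 2.29-fold lower. The A1 sum did not pass against resting cells without resting replicate 1 (adjusted p = 0.141), without difamilast replicate 3 (adjusted p = 0.0678) or with scaling to total counts (adjusted p = 0.316). Singly, Bcl2a1b stood 0.72 higher on the log2 scale (edgeR adjusted p = 0.0175) and did not pass under these 3 settings (0.115, 0.0938 and 0.389), and Bcl2a1d stood 0.81 higher (0.00567) and did not pass without resting replicate 1 (0.0553) or with total counts (0.182). Mcl1 stood 0.29 ± 0.11 higher on the log2 scale (SE; edgeR adjusted p = 0.054) and passed without resting replicate 1 (adjusted p = 0.00425), without difamilast replicate 3 (adjusted p = 0.0253) and with the length trend removed (adjusted p = 0.0208). Its sign flipped with scaling to total counts (-0.22, adjusted p = 0.183). Bax had -0.28 ± 0.17 (SE; adjusted p = 0.22) and passed with scaling to total counts (-0.79, adjusted p = 0.000491) and without resting replicate 1 (-0.51, adjusted p = 0.00533).

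The gene Morrbid lies 136 kb past the end of Bcl2l11 on chromosome 2 (128298663 to 128429351, RefSeq table of GRCm38.p6) and encodes a long non-coding RNA known to repress Bcl2l11 in short-lived myeloid cells. It was added after its values were seen. Morrbid lay at 29.9, 36.9 and 35.1 CPM in resting, 154, 167 and 156 in stimulated and 98.2, 91.0 and 105 in difamilast libraries, with no overlap between groups. It rose 4.69-fold with stimulation (edgeR adjusted p = 1.06e-09) and fell 1.63-fold with difamilast (adjusted p = 0.00107), and both calls held under all 16 alternatives. Among these, removal of the length trend did not act on Morrbid, which had no matched transcript length. Bcl2l11 and Morrbid thus went in opposite directions with difamilast. With stimulation both rose with TMM scaling, but with scaling to total counts Bcl2l11 had 0.08 on the log2 scale (adjusted p = 0.604) and Morrbid 1.71, and whether the 2 transcripts bear on each other was not tested.

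**Figure D3:**
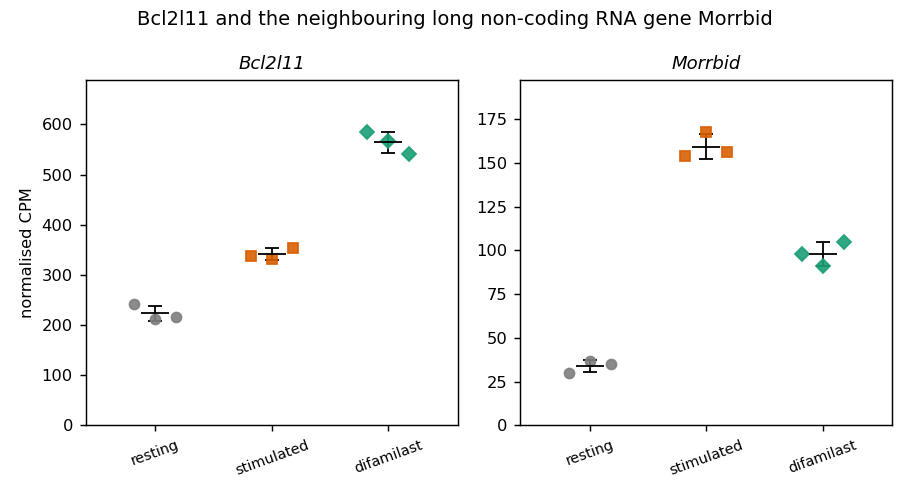
Normalised CPM (y axis, from 0) of Bcl2l11 and Morrbid in each library by condition (x axis); points are libraries, with mean and SD over 3. Bcl2l11 is highest in difamilast libraries (542 to 584), whereas Morrbid is highest in stimulated libraries (154 to 167) and lower with difamilast (91.0 to 105).

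Levels of different genes were compared per kilobase of the longest annotated transcript, a scale that depends on which isoform the cells use. The places below are those of genes taken singly, and the split between A1 genes is uncertain. The A1 sum was 122, 277 and 204 CPM in resting, stimulated and difamilast cells, from transcripts of 444 to 863 bases. Per kb that sum would stand above every single member by mean in each condition. In resting cells Mcl1 led with 117 CPM per kb, followed by Bax with 102, and their libraries overlapped. Bcl2a1b (54.0), Bcl2a1d (44.8) and Bcl2l11 (44.3) came next, with overlap between neighbours, then Pmaip1 (27.7), and Bbc3 (17.7), Bcl2l1 (17.5) and Bid (15.9), which overlapped, with Bcl2 lowest at 2.49. In stimulated cells Bcl2l1 led with 151 CPM per kb, above Mcl1 at 132 in every library. In difamilast cells Mcl1 led with 143, Bcl2l1 had 123, and Bcl2l11 stood next with 112, up from place 6 in stimulated cells, with libraries that overlapped those of Bcl2a1b (88.9). Bcl2 stayed lowest, at 5.62 and 6.13, although it overlapped Bid (6.33) in difamilast cells.

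**Figure D4:**
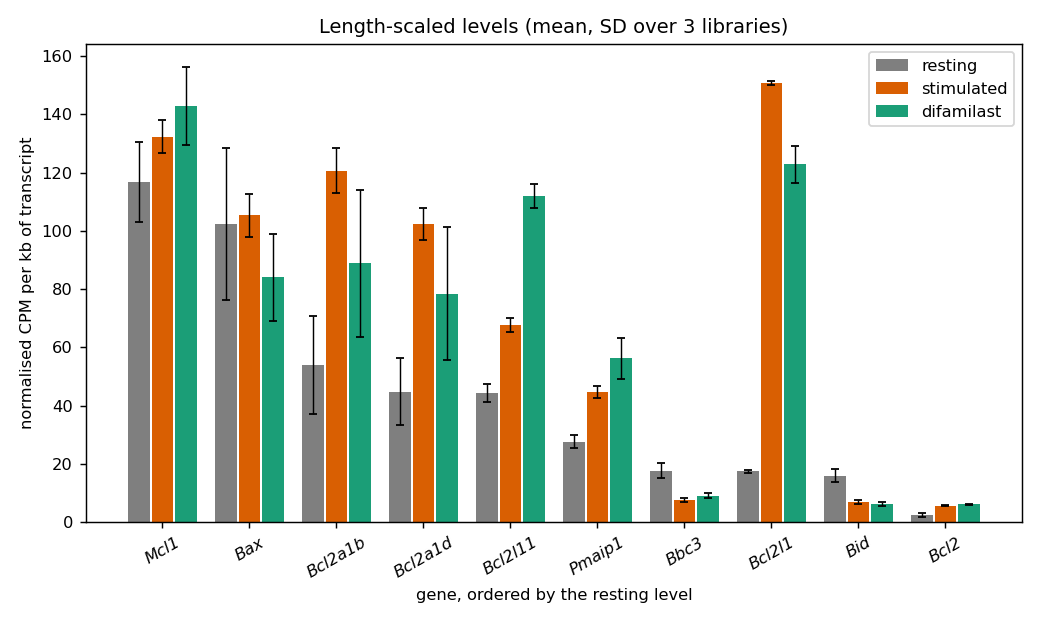
Normalised CPM per kb of transcript (y axis, from 0) for each member, ordered along the x axis by its resting level; bars are means and whiskers SDs over 3 libraries, by condition (colour). Bcl2l1 moves from 17.5 in resting to 151 in stimulated cells, and Bcl2l11 from 67.6 in stimulated to 112 in difamilast cells.

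Promoter windows of 9 members (RefSeq, GRCm38.p6, from 250 bases before to 50 after a start) were searched on both strands for 5 motifs. Matching by letters used the cAMP response element TGACGTCA and its core TGACG, the STAT motif TTCNNNGAA, the forkhead motif GTAAACA and an NF-kB site. What is called the NF-kB site here is a fixed sequence of 10 letters with no free position. Other forms of the NF-kB consensus were not searched, so absence of this site says nothing of them. The core lies within the full element, so each match to TGACGTCA also counts as TGACG. The forkhead letters stood in 1 window each of Bcl2l11 and Bbc3, both known targets of FOXO factors, and in 3.65% of all 32851 windows. These 2 windows are shown because they are the only ones among those searched for the 9 members that hold it. Both genes lay higher with difamilast in every library, Bcl2l11 by a change that passed and Bbc3 by 0.25 on the log2 scale, which did not (edgeR adjusted p = 0.47). So did Bcl2, whose window lacks the forkhead letters, and Pmaip1, which was not searched. With stimulation Bcl2l11 and Bbc3 went opposite ways, by 0.61 and -1.20 on the log2 scale. Whether the match bears on any of these changes was not tested. Capitals mark the forkhead match.

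Bcl2l11, chr2:128125788-128126087, plus strand: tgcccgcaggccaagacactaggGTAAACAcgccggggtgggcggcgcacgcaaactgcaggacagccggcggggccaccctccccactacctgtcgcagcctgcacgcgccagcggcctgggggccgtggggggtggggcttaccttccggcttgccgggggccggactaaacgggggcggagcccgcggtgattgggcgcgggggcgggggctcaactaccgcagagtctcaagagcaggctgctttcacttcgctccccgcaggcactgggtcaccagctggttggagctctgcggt

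Bbc3, chr7:16310011-16310310, plus strand: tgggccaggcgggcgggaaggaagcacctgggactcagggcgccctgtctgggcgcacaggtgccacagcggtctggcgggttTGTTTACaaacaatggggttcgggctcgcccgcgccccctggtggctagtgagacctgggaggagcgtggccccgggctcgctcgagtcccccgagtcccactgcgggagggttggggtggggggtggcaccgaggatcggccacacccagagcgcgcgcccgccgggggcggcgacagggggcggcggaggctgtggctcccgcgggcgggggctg

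TGACG stood in the windows of Bcl2, Bcl2a1b, Bcl2a1d and Mcl1, and in 1 of the 3 windows of Bbc3, beside 20.8% of all windows. That share is per window and not per gene, and some members have several windows. The paralogs Bcl2a1b and Bcl2a1d hold the match between the same flanking letters, so their windows are not independent of each other. The window of Bcl2 is shown as the example, with the match in capitals.

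Bcl2, chr1:106714241-106714540, minus strand: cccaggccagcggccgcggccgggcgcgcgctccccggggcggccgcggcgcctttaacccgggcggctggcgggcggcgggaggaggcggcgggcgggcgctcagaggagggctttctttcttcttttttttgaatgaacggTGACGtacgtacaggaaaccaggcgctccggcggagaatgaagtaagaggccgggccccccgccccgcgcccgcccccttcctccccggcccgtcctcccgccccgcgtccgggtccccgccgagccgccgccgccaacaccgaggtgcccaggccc

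TGACGTCA (1.79% of all windows), TTCNNNGAA (8.3%) and the NF-kB site (0.155%) stood in no window of these members, the 3 windows of Bcl2l1 included. A match is a run of letters and not a site of binding, and the absence of one says only that these letters are not in this window.

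The rest of the family and its partners were read from lists of genes by function. Their counts with stimulation stand beside 15.3% of all tested genes higher and 16.4% lower, or 6.21% and 41% with scaling to total counts, and their counts with difamilast beside 2.21% and 1.24%. Of 16 other BCL2 family genes, 13 were tested, and 3 rose and 4 fell with stimulation; the median log2 fold change was 0.19, and with scaling to total counts 2 rose and 6 fell. Bmf, a BH3-only gene, fell from 21.2 ± 4.51 to 7.17 ± 1.38 CPM (SD, n = 3; edgeR adjusted p = 4.17e-05), Bnip3l, a mitophagy receptor gene, was 1.71-fold lower and Bcl2l12 2.36-fold lower. Bcl2l2 and Bak1 are outside the naming rule and were chosen after their values were seen. Bcl2l2, which encodes the guard BCL-W, fell 1.66-fold. Bak1, which encodes the second membrane effector BAK, rose 1.35-fold, beside the rises of Bcl2a1a and Bcl2a1c. Those A1 genes were the 2 that rose with scaling to total counts, so the call of Bak1 ended there. Exons of Bcl2l12, Bcl2l2 and Bak1 overlap those of other genes, so their counts are uncertain. With difamilast 0 of the 13 were called; 2 had an unadjusted p under 0.05, both lower, and DESeq2 called 0.

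Among 20 genes of the apoptosome, the caspases and their inhibitors, 9 rose and 7 fell with stimulation, with a median log2 fold change of 0.09; with scaling to total counts the numbers were 5 and 10. Fas, the death receptor, rose 9.38-fold, from 17.2 ± 2.67 to 162 ± 4.73 CPM (SD, n = 3; edgeR adjusted p = 5.94e-11). Cflar, which encodes the caspase-8 inhibitor c-FLIP, rose 2.45-fold, and Diablo, which encodes the IAP antagonist SMAC, 1.95-fold. With difamilast 1 of these 20 was called, Cflar (DESeq2 called 1 higher and 1 lower), which went from 241 ± 3.73 to 169 ± 6.55 CPM, 1.42-fold lower (edgeR adjusted p = 0.00456; 0.0559 without difamilast replicate 2). For Fas the value was -0.21 ± 0.11 on the log2 scale (SE; edgeR adjusted p = 0.401).

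Of 21 tested regulators of BCL2 family transcription and protein turnover, 6 rose and 4 fell with stimulation; the median log2 fold change was 0.05. With scaling to total counts the counts were 5 and 14. The survival kinase gene Pim2 rose 11.7-fold, the NF-kB subunit gene Nfkb1 5.43-fold and Stat5a, which encodes a factor downstream of the IL-3 receptor, 4.97-fold, with edgeR adjusted p-values of 1.06e-11, 1.46e-10 and 1.93e-10. With difamilast 3 rose and 0 fell, and DESeq2 called 4 higher and 1 lower; 3 lay lower at an unadjusted p under 0.05. Nfkb1 rose 1.45-fold (edgeR adjusted p = 0.0048) and did not pass without stimulated replicate 1 (0.0542) or 2 (0.0506). Foxo1, a forkhead factor gene, lay at 46.2, 46.0 and 45.1 CPM in stimulated and 79.6, 74.4 and 58.8 in difamilast libraries, 1.55-fold higher (adjusted p = 0.0145). It did not pass without stimulated replicate 1, 2 or 3 or difamilast replicate 1 or 2 (adjusted p from 0.0741 to 0.103). Trib3, a stress-induced pseudokinase gene, rose 1.89-fold (adjusted p = 0.0427) and did not pass under the replicate block (adjusted p = 0.0603) or without any 1 of stimulated replicates 1 to 3 or difamilast replicates 1 and 2 (0.124 to 0.283).

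**Figure D5:**
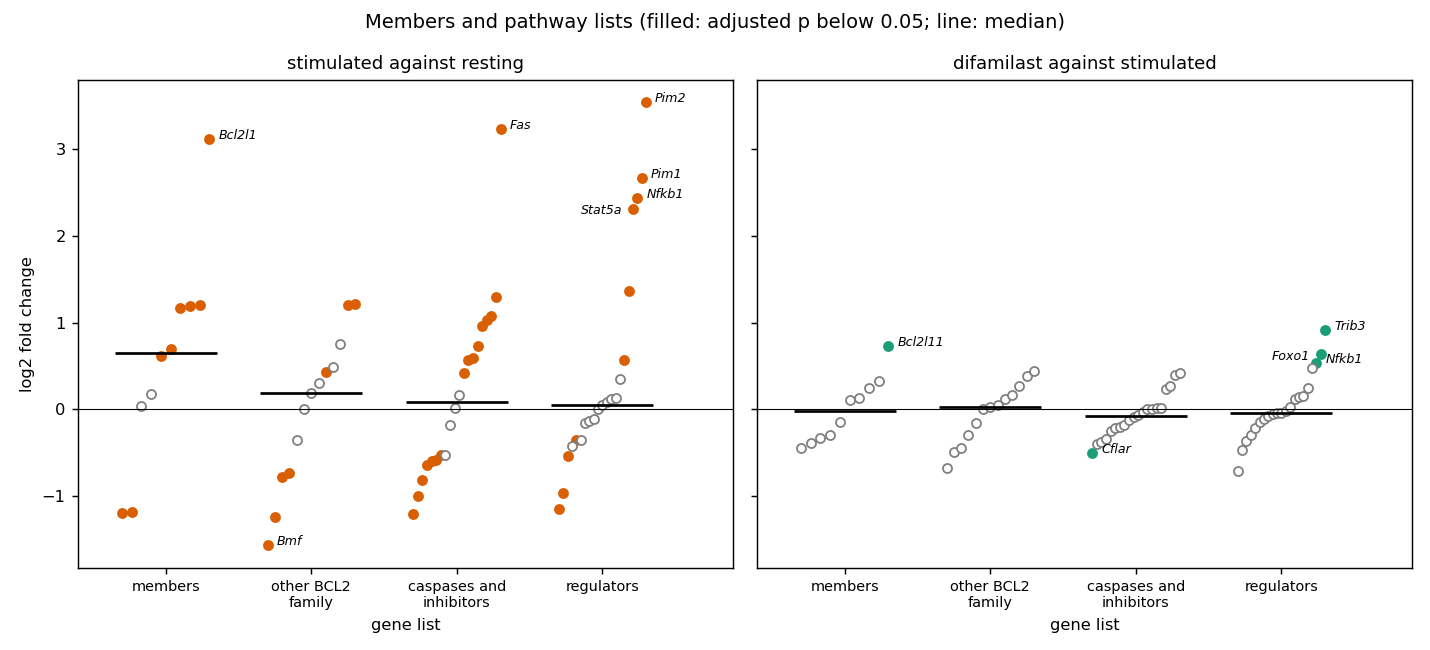
Log2 fold change (y axis) of each tested gene in the 10 members and the 3 other lists (x axis), for stimulation (left) and difamilast (right); filled points passed an adjusted p of 0.05 in edgeR with TMM scaling and the line is the median of the list. Medians of the members are 0.65 and -0.02, and Bcl2l11, Cflar, Nfkb1, Foxo1 and Trib3 are the named genes on the right.

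For each member, the gene outside the 10 members whose log2 CPM followed it most closely over the 9 libraries was taken. The pool was 8857 genes averaging at least 10 CPM, from which other BCL2 family genes were not removed. These libraries form 3 groups, so a high correlation mostly means the same order of groups, and no p is given. Eri1, a 3' exonuclease gene, was closest to Bcl2l1 (Pearson's r = 0.999). Hif1a, which encodes an oxygen-regulated transcription factor, was closest to Bcl2l11 (r = 0.995). Hif1a lay at 139, 228 and 364 CPM in resting, stimulated and difamilast cells. Sash3 was closest to Bid (r = 0.994), Agap2 to Bbc3 (r = 0.987), Gm47331 to Bcl2 (r = 0.992), Gm49890 to Pmaip1 (r = 0.992), Szrd1 to Bcl2a1d (r = 0.994), Ptprcap to Bax (r = 0.986) and Ammecr1l to Mcl1 (r = 0.982). Gm29094 was closest to Bcl2a1b (r = 0.998), whose exons it shares in part.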

How the data were processed

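Bulk RNA-seq libraries of 9 mouse basophil samples were analysed from raw read counts per gene symbol, deposited by the authors as 1 table. Per the labels' protocols, polyadenylated RNA was reverse transcribed on beads, amplified by the TAS-Seq procedure and fragmented; no molecular identifiers are mentioned, so counts may include amplification copies. Per the submitters' processing notes, cutadapt 4.1, Bowtie2 2.4.5 and GRCm38 were used; how reads were assigned to genes, and whether strand was used, is not given in the sources used here. Totals were 6261446 to 38098584 counts. Groups and replicate numbers came from the sample titles.

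Counts were fitted with edgeR 4.0.16 (R 4.3.3; TMM scaling, filterByExpr with minimum count 10 and total 15, robust quasi-likelihood test, 6 residual degrees of freedom) over all 9 libraries without covariates. P-values were adjusted by Benjamini-Hochberg over 21341 genes, with calls at 0.05; the SE is the log2 fold change over the square root of F, and 95% intervals use it. The steps were tested on simulated data with changes planted in both directions in a small part of the genes. That run therefore says nothing of the choice of scaling. Positions and lengths (longest transcript) came from GENCODE vM21, which matched 34294 of the 35673 symbols. Other settings tried were RLE scaling, DESeq2 1.42.0, no low-count filter, a fit limited to each pair of groups, replicate number as a block, removal of a lowess trend with transcript length (span 0.3), each library left out and, chosen after the data had been seen, scaling to total counts. The 10 members and the gene lists were chosen with earlier results of these data known. Named were all members, up to 3 called genes of each other list with the smallest p in each of the first 2 comparisons, every A1 paralog, and the closest gene by correlation (log2 CPM with prior count 2).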

Additional observations from a re-analysis of the deposited data

How the results depend on the processing

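Of 160 values of single members with stimulation over 16 alternatives, 151 kept their direction and side of the threshold; with difamilast against stimulated cells 153 of 160 did, and with difamilast against resting cells 149 of 160. Scaling to total counts changed the most: with stimulation 1326 genes were called higher and 8749 lower (3273 and 3497 with TMM) and 4 members higher and 4 lower, Mcl1 (-0.35) and Bax (-0.47) turning negative; with difamilast against resting cells 1507 genes were higher and 9472 lower, Mcl1 was -0.22 and the A1 sum 0.23. Bax with stimulation was also negative with DESeq2 (-0.0023), with the length trend removed (-0.0786) and without resting replicate 1 or stimulated replicate 1, its range without a library being -0.18 to 0.17. For difamilast against stimulated cells, 471 genes higher and 264 lower became 831 and 842 in a fit of these 2 groups, 662 lower without a filter and 441 lower with DESeq2, and leaving out a library gave 258 to 870 higher and 89 to 823 lower. Members called higher numbered 2 with DESeq2 and in the fit of 2 groups, and 1 to 2 without a library; members called lower numbered 1 with DESeq2, without a filter and in the fit of 2 groups, and 0 to 1 without a library. Without a library the A1 sum with difamilast lay from -0.71 to -0.28 against stimulated and from 0.48 to 0.91 against resting cells, and without a filter it was -0.42 against stimulated cells. Same-numbered libraries did not deviate together (correlations of -0.08 to 0.11), so the numbers were not taken as pairs; with the replicate block, 6 members rose and 2 fell with stimulation and Bcl2l11 kept its rise with difamilast. Depth limits members little, since the lowest count of a member in any library was 134, but in the shallowest libraries Bcl2, Bid and Bbc3 have the fewest reads.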
